A study of Mus musculus with 20 samples.

Results

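The immune (Lin+) fraction of interscapular brown adipose tissue (iBAT) was compared between Adrb1 knockout (KO) mice, in which cells that express Pdgfra lose the gene, and wild-type (WT) littermates. Members were the cells of the 4 Lin+ libraries of the Adrb1 line that had under 10% mitochondrial counts, under 15000 unique molecular identifier (UMI) counts and under 4000 detected genes. Cells in which Hba-a1 and Hbb-bs made up 20% or more of the total were left out as erythroid. This gave 17957 cells of the 53824 that passed the same filters in all 10 Lin+ libraries, and of 120075 in the whole series. The WT libraries held 3241 cells at room temperature (RT) and 8695 after 4 days at 6 °C (COLD), and the KO libraries held 2290 at RT and 3731 in COLD.

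Every mouse of the line was a female of 8 to 14 weeks, carried Adrb1 fl/fl and received tamoxifen. KO mice carried Pdgfra-CreER, a Cre recombinase that tamoxifen activates, and WT mice did not, so the genotypes also differed in the presence of the recombinase. Each of the 4 groups was 1 library from 3 to 4 pooled mice. Lin+ cells had been retained on magnetic beads with antibodies to lineage antigens of T cells, B cells, myeloid cells and erythroid cells. Both RT libraries came from version 3 of the Chromium kit and both COLD libraries from version 2, and the study's methods say that the temperatures were collected on different days, so temperature, kit and day cannot be told apart, and KO was set against WT only within a temperature. The 6 other Lin+ libraries, from C57 mice at RT, in COLD or infused with the β3-adrenergic agonist CL316,243 (CL), gave 2 libraries per group and show how far libraries of 1 group can lie apart. The C57 mice were male and, as far as the sources used here say, received no tamoxifen, so any level set beside theirs also crosses sex, strain and tamoxifen. Their libraries were all made with version 2 of the kit, so at RT the kit is crossed too, and the spread they lend to the test of KO is that of version 2.

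Noradrenaline released from sympathetic nerves activates brown fat in the cold. It signals through β-adrenergic receptors. Of these, Adrb1 encodes the β1 receptor of stromal progenitors, which the authors state is also present on brown adipocytes. Adrb3 encodes the β3 receptor of adipocytes. Cold and β3 agonists also bring macrophages and dendritic cells into brown fat. Some of these macrophages take up lipid and express genes such as Gpnmb, Trem2 and Spp1. A change in the immune cells of KO mice would be indirect, since the receptor was deleted in stromal cells.

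The targeted gene was checked in the Lin- libraries of the same mice, in cells with Pdgfra counts. In COLD, Adrb1 stood at 4.00 CPM (counts scaled to equal library totals) in WT (95% counting interval 3.18 to 5.03) and 0.494 in KO (0.161 to 1.16). At RT, the values were 1.57 in WT (0.917 to 2.52) and 0.488 in KO (0.0600 to 1.79), with only 2 positive cells of 954 in KO. The intervals did not overlap in COLD and overlapped at RT. In the Lin+ cells, where no deletion was designed, Adrb1 was 4.11 CPM in WT RT, 5.78 in KO RT, 0.817 in WT COLD and 1.64 in KO COLD, so it was no lower in KO than in WT. Adrb3 had at most 2 counts in any of the 4 libraries, and Pdgfra was between 2.10 and 3.62 CPM.

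The 4 libraries held between 9.15e+06 and 3.42e+07 UMIs in member cells, with medians of 2637 to 3263 UMIs per cell. The leukocyte antigen gene Ptprc was detected in 93.2% of WT RT and 92.1% of KO RT cells, and in 67.9% of WT COLD and 70.3% of KO COLD cells. Before erythroid cells were left out they made up 4.70% of WT RT, 5.53% of KO RT, 15.2% of WT COLD and 24.5% of KO COLD cells. Between 2.04% and 5.59% of the members fell in clusters with stromal, endothelial, glial or epithelial markers. The highest of these shares, in KO RT against 2.93% in WT RT, came from 1 cluster named endothelial with a median of 1247 UMIs. With finer clusters (Leiden resolution 2) 127 of its 223 cells fell in a low-count cluster named macrophage from 4 of 10 markers, and the share was 1.42% of WT RT and 1.09% of KO RT. The COLD libraries shared 47 cell barcodes and the RT libraries 3. Over 7976 genes, the median absolute log2 difference was 0.114 within the RT pair and 0.174 within the COLD pair, against 0.224, 0.118 and 0.303 between C57 libraries of the RT, COLD and CL groups. The distance within the COLD pair was thus above that of 1 C57 group and below that of the other two. Xist, expressed in female cells, was between 840 and 1068 CPM in all 4 libraries.

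The make-up of the immune fraction differed most in COLD. KO COLD had lower shares of monocytes and macrophages and of dendritic cells than WT COLD, and higher shares of T cells, B cells and neutrophils. At RT the shares of the clusters named monocyte/macrophage, dendritic and B cell lay close together in both genotypes. Clusters were named from marker lists whose genes had been left out of the clustering.

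Monocytes and macrophages made up 21.9% of WT RT cells (95% binomial interval 20.5 to 23.4) and 21.4% of KO RT cells (19.8 to 23.2). In COLD they made up 40.3% of WT (39.3 to 41.4) and 31.2% of KO (29.7 to 32.7). Dendritic cells, which present antigen to T cells, were 2.68% of WT RT, 2.53% of KO RT, 22.4% of WT COLD and 13.4% of KO COLD. In the C57 COLD libraries, monocytes and macrophages were 47.7% and 33.8%, and dendritic cells 31.2% and 34.9%. Both shares of KO COLD were thus below those of the other 3 COLD libraries, and its monocyte/macrophage share was close to that of 1 C57 library.

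T cells made up 19.4% of WT RT, 24.1% of KO RT, 11.9% of WT COLD and 20.8% of KO COLD. This class was the only 1 of the 6 tested with a higher KO share at both temperatures, by 1.24-fold at RT and 1.74-fold in COLD. B cells were 21.4% of WT RT and 20.4% of KO RT, against 9.71% of WT COLD and 16.1% of KO COLD. At RT 1 cluster with 8 of 8 B cell markers raised and 1 with 9 of 10 T cell markers stayed unnamed, because markers of another class were among their leading genes. With them the B cell share at RT was 27.5% in WT and 24.2% in KO, and the T cell share 23.9% and 31.2%. Neutrophils were 13.02% of WT RT and 9.56% of KO RT, against 5.31% of WT COLD and 8.50% of KO COLD. Natural killer (NK) cells were 4.44% of WT RT and 2.84% of KO RT, against 2.66% of WT COLD and 3.70% of KO COLD. The direction of the neutrophil and NK cell differences was opposite at the 2 temperatures. Shares add up to a whole, so a lower share of 1 class goes with higher shares of others.

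**Figure D1:**
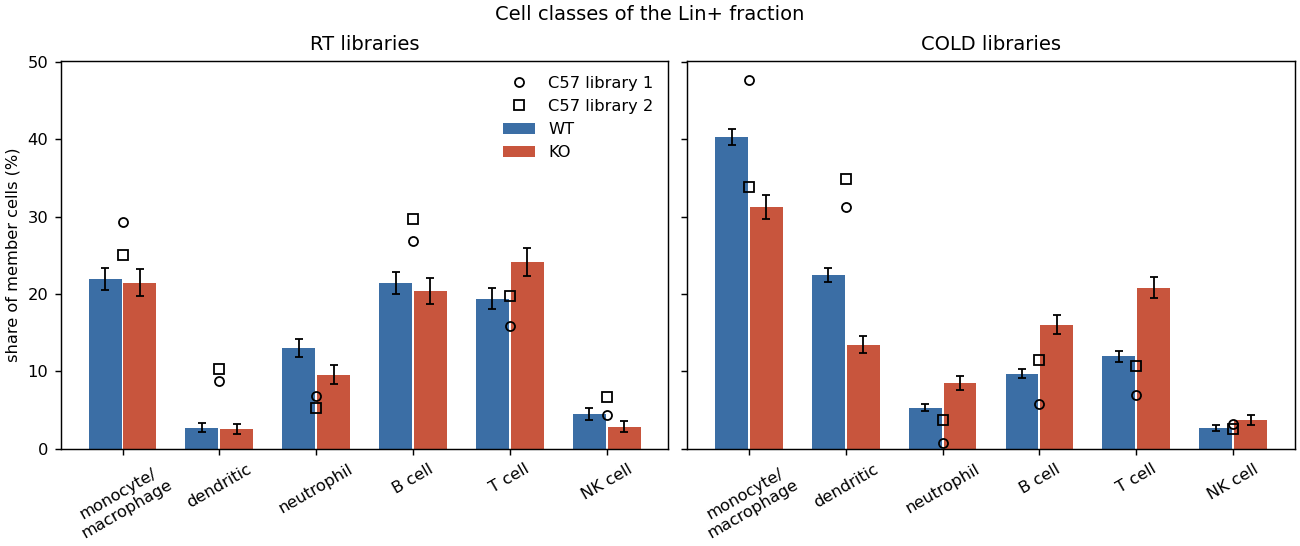
Share of member cells (%) of 6 classes in WT and KO (bars) at RT and in COLD, with 95% binomial intervals for counting error only, and in both C57 libraries of the same condition (open circles and squares). Within the COLD pair the monocyte/macrophage share was 40.3% in WT and 31.2% in KO and the T cell share 11.9% in WT and 20.8% in KO, and the C57 COLD libraries lay at 47.7% and 33.8% for monocytes and macrophages.

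None of these differences passed the test across libraries. In edgeR's quasi-likelihood fit of the class counts, the log2 difference of KO from WT over both temperatures was −0.20 (SE 0.56) for monocytes and macrophages, −0.43 (SE 0.42) for dendritic cells, 0.56 (SE 0.56) for T cells, 0.33 (SE 0.60) for B cells, 0.12 (SE 0.72) for neutrophils and −0.08 (SE 0.49) for NK cells. The adjusted p was 0.88 for each of the 6. The 95% interval ran from −0.71 to 1.83 for T cells and from −1.37 to 0.52 for dendritic cells, so both held 0 as well as differences of over 2-fold. The 2 C57 CL libraries differed 2.94-fold in their T cell share and 2.90-fold in their B cell share.

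Within the macrophages of COLD mice, the lipid-associated group (MAC1, with Gpnmb, Spp1 and Trem2 among its markers) had the lowest ratio of KO to WT shares among the macrophage groups. Its cluster held 16.3% of WT COLD cells (15.5 to 17.1) and 5.17% of KO COLD cells (4.48 to 5.93), a ratio of 0.317. With resolution 2 the shares were 8.41% and 2.84%, a ratio of 0.338. All 12 of its 12 markers, which the clustering did not use, were raised in it. In the C57 mice the clusters led by this list held 24.6% and 22.6% in COLD, but 16.6% and 2.17% in CL, so 2 libraries of 1 group differed there by more than WT and KO did. At RT no cluster of either genotype was led by this list. The RT pair was clustered on its own, so a few such cells would not have formed a cluster. The inflammatory group (MAC3) held 13.4% of WT COLD and 12.1% of KO COLD cells, the monocytes 8.61% and 10.6%, and the resident group (MAC2) 1.98% and 3.40%. MAC3 was made of a pair of clusters that went opposite ways. The larger, led by Dmkn, Vcan and Chil3, held 11.4% of WT COLD and 5.44% of KO COLD cells (ratio 0.477), and the smaller, led by the interferon response genes Cxcl10, Rsad2 and Ifit3, held 2.02% and 6.65%. The smaller cluster was formed with interferon response genes, so its share is not a separate result from their level, given below.

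All 4 kinds of dendritic cell told apart in COLD had a lower share in KO. Type 1 conventional dendritic cells (cDC1), which cross-present antigen to CD8 T cells, held 8.23% of WT COLD and 3.94% of KO COLD cells. Their larger cluster held 5.61% of WT COLD and 3.38% of KO COLD cells, and their smaller cluster 2.62% and 0.563%. The smaller was led by cell cycle genes, so its share is not a separate result from the level of those genes, given below. Clusters led by the list for type 2 cells (cDC2), which present to CD4 T cells, held 11.8% and 8.01%. With resolution 2 they held 7.44% and 3.08%, and 2 further clusters led by cDC2 markers (294 and 135 cells) stayed unnamed and are not counted. With resolution 1 the larger and the smaller COLD cluster each raised only 4 of 8 cDC2 markers. Clec4b1 was among the leading genes of both, and Cd209a led the larger. The authors name cells with Cd209a, Tnip3 and Clec4b1 monocyte-derived dendritic cells, so cDC2 here is the name of the list. Mature dendritic cells, marked by the lymph node homing receptor gene Ccr7, held 2.38% and 1.45%, and plasmacytoid dendritic cells (pDC), known for secreting type I interferon, held 1.96% and 1.13%. The pDC were named as a class of their own and are not in the dendritic class above. The C57 COLD libraries held 11.2% and 12.4% of cDC1 and 15.4% and 18.1% of cDC2. For both kinds, KO COLD was thus lowest of the 4 COLD libraries and WT COLD next. At RT only clusters led by cDC1 markers were named, with 87 cells in WT and 58 in KO, so the dendritic class rested on different clusters at the 2 temperatures. With resolution 2 the dendritic share was 7.59% of WT RT, 5.50% of KO RT, 18.1% of WT COLD and 8.44% of KO COLD, and a cDC2 cluster of 228 cells was named at RT too. All 228 came from the cluster of 302 cells led by Lyz1 and Retnla that resolution 1 named resident macrophage, so both the RT share and the name of these cells depended on the resolution.

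**Figure D2:**
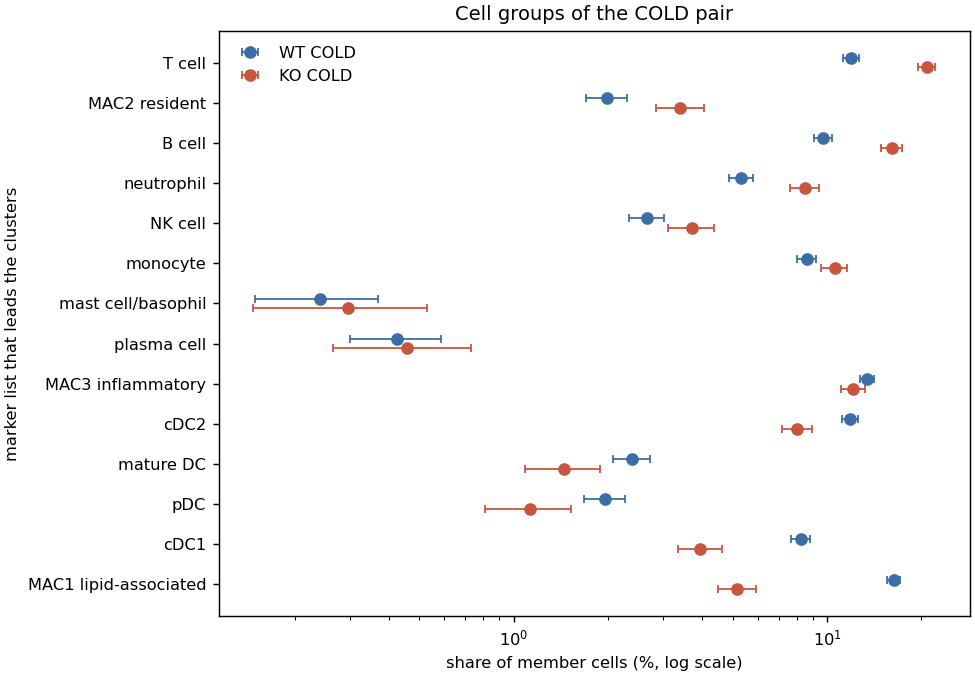
Share of member cells (%, log axis) of the COLD pair in clusters grouped by the marker list that leads them, WT COLD and KO COLD, with 95% binomial intervals for counting error. The groups are ordered by the ratio of KO to WT, from MAC1 at 0.317 at the bottom to T cells at 1.74 at the top.

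Counts were then summed per library over all member cells, and over the cells of each class, and KO was tested against WT over both temperatures with edgeR's quasi-likelihood test. No gene passed an adjusted p of 0.05 (0.0% called) among 14308 genes of the whole fraction. None passed among 11620 genes of monocytes and macrophages (0.0%), 10670 of dendritic cells (0.0%), 7195 of neutrophils (0.0%), 8595 of B cells (0.0%), 9830 of T cells (0.0%) or 6093 of NK cells (0.0%). At an unadjusted p under 0.05 there were 197 genes in the whole fraction, 283 in monocytes and macrophages, 547 in dendritic cells, 139 in neutrophils, 165 in B cells, 74 in T cells and 188 in NK cells. Where nothing differs, a share of about 0.05 of the genes tested would fall there. The share was close to that in dendritic cells and below it in every other set. DESeq2 called 0 genes in the whole fraction, neutrophils, B cells, T cells and NK cells, 2 in monocytes and macrophages (Xcl1 and Ifi208, higher) and 12 in dendritic cells. With the C57 replicate number as a block, edgeR called 9 genes in dendritic cells, 5 in T cells, 3 in NK cells, 1 in B cells and 0 elsewhere. The fit had 4 residual degrees of freedom. In a sum over cells, fewer cells of a type and less RNA per cell cannot be told apart.

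With 1 library per genotype and temperature, the values below describe the 2 pairs and have no test within a temperature. The CPM given are scaled with TMM factors, log2 differences are KO minus WT, and counts of list members cover those with a mean of at least 10 CPM over the 4 libraries. Over all 7940 such genes of the whole fraction, the median log2 difference was −0.03 at both temperatures, with 42.1% of genes higher in KO at RT and 45.2% in COLD. A difference of over 2-fold was seen at RT in 0.29% of genes towards higher and 0.479% towards lower values in KO, and in COLD in 1.35% towards higher and 0.466% towards lower. In monocytes and macrophages (7476 genes) the shares were 0.522% and 0.575% at RT, and 1.22% and 0.308% in COLD.

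Interferon response genes were higher in KO than in WT in COLD, across all the measured members of the list, and mostly lower in KO at RT. These genes are switched on by interferons, and they encode antiviral proteins (Ifit1, Ifit3, Rsad2, Oasl1), the ubiquitin-like modifier Isg15, the transcription factor Irf7 and the T cell attracting chemokine Cxcl10. Of the 40 genes listed, 38 were measured in the whole fraction at 10 CPM or more. In COLD all 38 were higher in KO, 19 of them by over 2-fold, with a median log2 difference of 1.01. At RT 8 were higher and 30 lower, with a median of −0.22. None passed the test over both temperatures, which averages the 2 pairs. The cluster led by Cxcl10, Rsad2 and Ifit3 held 176 cells of WT COLD and 248 of KO COLD. Without it 37 of 38 were higher in KO COLD, and the ratio of KO to WT for the sum (without TMM factors) was 1.49 against 1.84 with it.

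The core of the interferon-stimulated response element, GAAA and GAAA with 2 bases of any kind between them on either strand, was searched in the 250 bases before and 50 after each RefSeq start (GRCm38.p6). It was present in 20 of the 30 promoters matched to the list (66.7%) and in 923 of 26995 other promoters (3.42%). The 250 bases upstream of the start are shown for 3 genes of the list that carry it, Cxcl10, Rsad2 and Ifit3, with the motif in capitals (the reverse complement, TTTC and TTTC, where it lies on the other strand). A match describes the letters only.
Cxcl10, chr5:92348890-92349139, minus strand: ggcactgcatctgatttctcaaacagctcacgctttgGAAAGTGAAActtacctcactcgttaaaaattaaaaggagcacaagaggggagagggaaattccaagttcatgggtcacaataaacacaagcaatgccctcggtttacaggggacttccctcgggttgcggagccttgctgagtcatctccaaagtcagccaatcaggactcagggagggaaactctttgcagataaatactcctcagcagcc
Rsad2, chr12:26456453-26456702, minus strand: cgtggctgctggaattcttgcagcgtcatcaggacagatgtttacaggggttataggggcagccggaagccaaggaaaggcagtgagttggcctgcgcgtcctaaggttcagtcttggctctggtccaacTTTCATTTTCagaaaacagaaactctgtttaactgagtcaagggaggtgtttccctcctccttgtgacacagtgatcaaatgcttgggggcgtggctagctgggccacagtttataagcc
Ifit3, chr19:34583279-34583528, plus strand: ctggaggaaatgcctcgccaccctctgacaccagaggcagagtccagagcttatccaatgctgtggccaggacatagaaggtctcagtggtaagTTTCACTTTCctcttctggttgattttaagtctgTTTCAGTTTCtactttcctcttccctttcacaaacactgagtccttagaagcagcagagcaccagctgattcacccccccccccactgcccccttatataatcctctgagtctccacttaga

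The summed level of the 40 genes in the whole fraction was 2333 CPM in WT RT and 1999 in KO RT, and 5613 in WT COLD and 10196 in KO COLD. The ratio of KO to WT was 0.857 at RT and 1.82 in COLD. The C57 COLD libraries stood at 8161 and 8626, between WT COLD and KO COLD, and the C57 RT libraries at 2514 and 2739. Thus WT COLD was the lowest of the 4 COLD libraries and KO COLD the highest. The 2 members with the most counts were Ifi27l2a, at 456 CPM in WT RT, 354 in KO RT, 1578 in WT COLD and 2031 in KO COLD, and Bst2, which tethers budding virions, at 103, 93.0, 542 and 836 in the same order. Both differences were smaller than the list's median in COLD.

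Some members differed more, and the following were singled out after their values were seen. Cxcl10 (chr5:92346638-92348889, minus strand, GRCm38) was 18.7 CPM in WT RT, 25.8 in KO RT, 160 in WT COLD and 789 in KO COLD in the whole fraction. Its log2 difference was 0.46 at RT and 2.30 in COLD, and 1.42 (SE 0.50) over both in edgeR, with an adjusted p of 1.0. Isg15 was 84.8, 57.2, 378 and 970 CPM in the same order of libraries. The C57 COLD libraries held 281 and 180 CPM of Cxcl10 and 688 and 568 of Isg15, so KO COLD was above all other COLD libraries for both genes. Ifit3 (chr19:34583531-34588731, plus strand) was 20.4, 17.5, 67.5 and 273 CPM, with 200 and 225 in C57 COLD. Reads of Ifit3 may be split with the near-identical Ifit3b, so its level is uncertain.

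**Figure D3:**
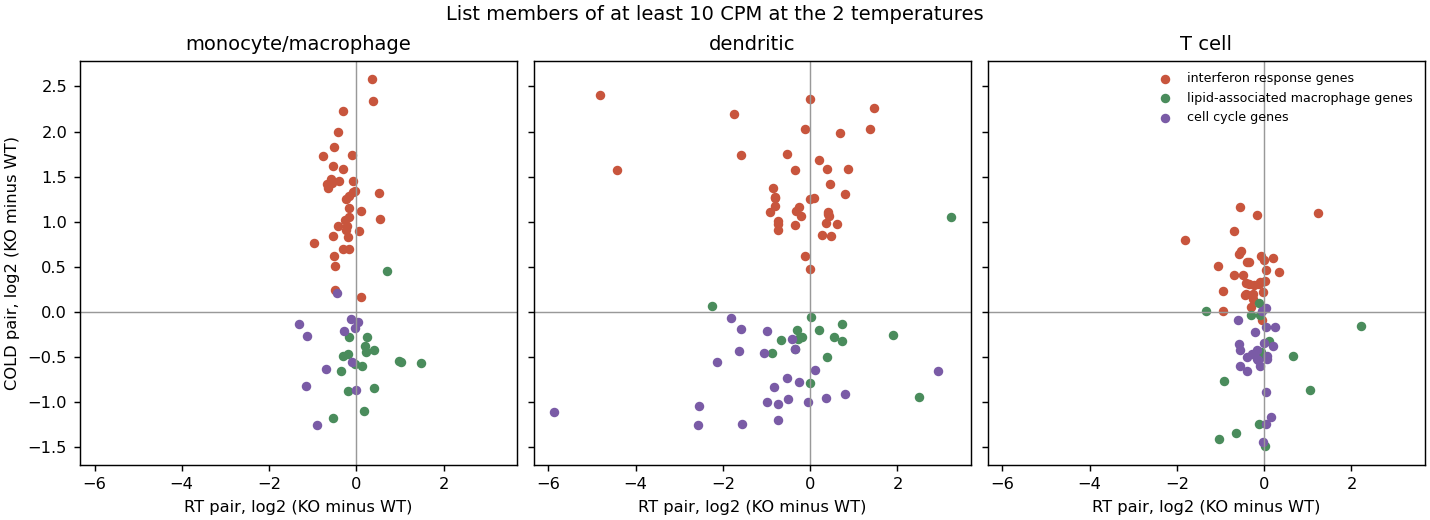
Log2 difference KO minus WT of members of 3 lists in monocytes and macrophages, dendritic cells and T cells, RT pair on the x axis and COLD pair on the y axis, 1 point per gene with a mean of at least 10 CPM. In monocytes and macrophages the 38 interferon response genes all lie above 0 in COLD (median 1.27), and 31 of them lie below 0 at RT.

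Summed over a class, the same direction was found in the 3 myeloid classes, though not in each of their clusters. In monocytes and macrophages, all 38 measured members were higher in KO COLD, 25 by over 2-fold, with a median of 1.27, and the summed level was 7481 CPM in WT COLD and 14815 in KO COLD, against 9095 and 11065 in C57 COLD. The class had a different make-up in the 2 genotypes. The cluster led by interferon response genes was 5.02% of its WT COLD cells and 21.3% of its KO COLD cells, and the MAC1 cluster 40.5% and 16.6%. Without the interferon-led cluster the ratio of KO to WT for the sum (without TMM factors) was 1.23 against 1.93 with it, and 35 of 38 members were higher in KO. At RT 7 were higher and 31 lower. There Cxcl10 stood at 31.6 CPM in WT RT, 40.4 in KO RT, 250 in WT COLD and 1493 in KO COLD. In dendritic cells all 39 members were higher in KO COLD, 30 by over 2-fold, with a median of 1.26. Their sum was 4041 CPM in WT COLD and 9772 in KO COLD, against 6815 and 6959 in C57 COLD. Leaving out any 1 dendritic cluster left all 39 higher, with ratios of 1.98 to 2.57. In neutrophils all 38 were higher, with a median of 0.81 and 11 over 2-fold. The 2 neutrophil clusters went opposite ways: the sum was 7062 CPM in WT and 11764 in KO in the smaller (169 and 114 cells), a ratio of 1.67, and 4094 and 3520 in the larger (293 and 203 cells), a ratio of 0.860, with 14 of 38 members higher. The higher sum of the class thus came with the smaller cluster, which stood apart from the larger: its cells had a median of 5570 UMIs against 1155, and in WT COLD its neutrophil granule genes summed to 44547 CPM against 265699 and its lipid-associated macrophage genes to 21451 against 4727. It was named from 8 of 8 neutrophil markers, and whether it also holds macrophage RNA was not tested. Among all genes of at least 10 CPM, 48.1% of 7458 in dendritic cells and 49.6% of 6662 in neutrophils were higher in KO COLD, 1.42% and 1.25% by over 2-fold.

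In lymphocytes the medians were lower than in the myeloid classes. In COLD the median log2 difference was 0.25 in B cells, with 18 members higher and 7 lower, 0.41 in T cells, with 31 higher and 1 lower, and 0.69 in NK cells, with 26 higher and 2 lower. At RT the medians lay between −0.33 in T cells and 0.01 in NK cells. Whether the classes differed from each other was not tested. Among the 17 COLD clusters with at least 50 cells in each library, the summed level was higher in KO in 14, with a median ratio of 1.42 and a range from 0.831 in a monocyte cluster to 2.47 in a cDC2 cluster. The others below 1 were the larger neutrophil cluster and the MAC2 cluster (0.946). In the cDC2 cluster it was 5596 CPM in WT and 13805 in KO, and in the MAC1 cluster 4785 in WT and 7739 in KO. The ratio was 1.71 in a T cell cluster led by Cxcr6 and Ifng and 1.48 in the NK cluster. A cluster of 424 cells named MAC3, led by Cxcl10, Rsad2 and Ifit3 and with the interferon-induced Ifi204, Ifi207 and Ifi209 among its naming markers, had 30251 CPM in WT and 32525 in KO, a ratio of 1.08, and is the one whose share is given above. At RT the sum was higher in KO in 4 of 13 clusters, with ratios from 0.713 to 1.19.

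**Figure D4:**
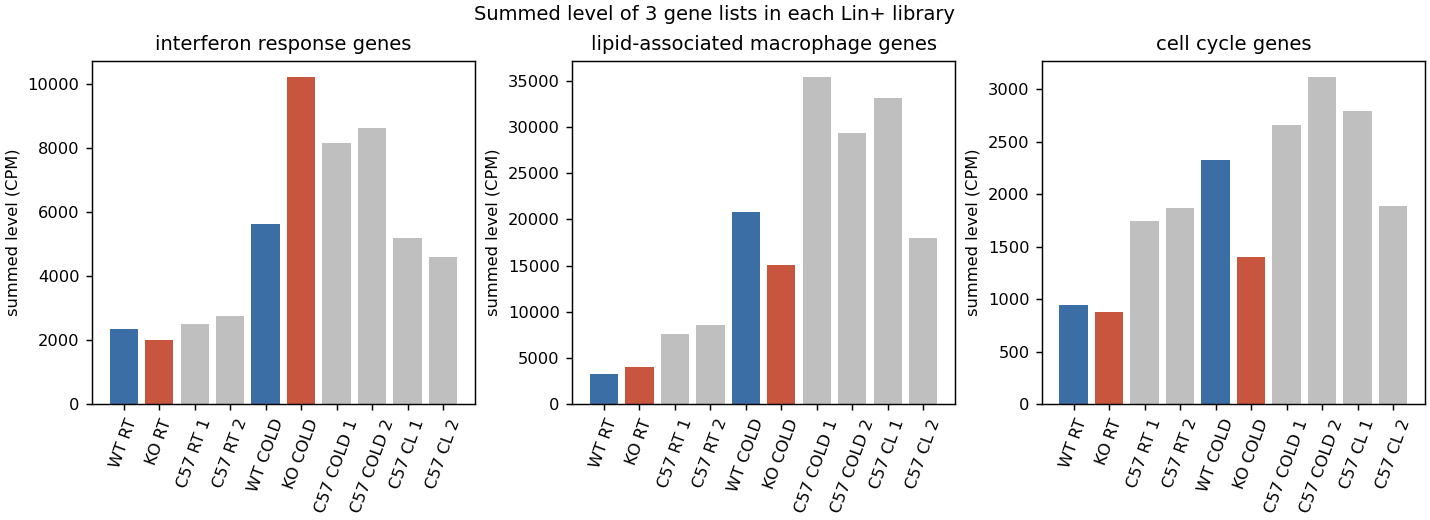
Summed level (CPM) of the interferon response, lipid-associated macrophage and cell cycle lists in the 10 Lin+ libraries, 1 bar per library, so no error bar is drawn. The interferon response list stood at 10196 CPM in KO COLD and 5613 in WT COLD, with both C57 COLD libraries between them.

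Dendritic cells had the most genes at an unadjusted p under 0.05 of the 6 classes. As a share of the genes tested this was close to the 0.05 met where nothing differs. Of the 39 interferon response genes, 28 had an unadjusted p under 0.05, against 547 of all 10670 genes tested. Ifit1 (chr19:34640871-34650009) was 5.60 CPM in WT RT, 9.20 in KO RT, 41.8 in WT COLD and 167 in KO COLD. At RT these rest on 5 and 6 counts, against 549 and 632 in COLD. Its log2 difference over both temperatures was 1.89 (SE 0.23), with an adjusted p of 0.10 in edgeR. The next was Serpinb6b, a protease inhibitor gene, at 126, 284, 46.1 and 91.5 CPM in the same order, with a log2 difference of 1.07 (SE 0.15) and an adjusted p of 0.19. Apod, which encodes a lipid carrier, was 3.36, 18.4, 9.52 and 46.9 CPM, with an adjusted p of 0.21. The RT values rest on 87 and 58 cells.

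With the C57 replicate number as a block, all 9 genes called in dendritic cells were higher in KO: Ifit1, Ifit2, Ifit3b, Ifi206, Ifi213, Cxcl10, Serpinb6b, Apod and Tagap. Cxcl10 was 49.3 CPM in WT RT, 136 in KO RT, 108 in WT COLD and 517 in KO COLD, with an adjusted p of 0.029 with the block and 0.40 without. For Ifit1 the adjusted p with the block was 0.0057. DESeq2 called Ifit1, Ifit2, Ifi206, Cxcl10, Epsti1, Ly6a, Serpinb6b, Apod and Tagap as higher and the proliferation genes Top2a, Pclaf and Stmn1 as lower.

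Cell cycle genes were lower in KO COLD than in WT COLD. These encode the proteins that replicate DNA and separate chromosomes, such as the topoisomerase Top2a and the proliferation marker Mki67. Of 25 listed, 22 were measured in the whole fraction, and all 22 were lower in KO COLD, 10 by over 2-fold, with a median log2 difference of −0.94. At RT 8 were higher and 14 lower, with a median of −0.03. The summed level was 944 CPM in WT RT, 877 in KO RT, 2328 in WT COLD and 1406 in KO COLD. The C57 libraries stood at 2662 and 3112 in COLD and at 2796 and 1887 in CL. KO COLD was lowest of the COLD libraries. The members with the most counts were the chromatin protein gene Hmgb2, at 323, 279, 574 and 379 CPM in the order WT RT, KO RT, WT COLD and KO COLD, and the tubulin gene Tubb5, at 154, 155, 419 and 312.

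In dendritic cells, cell cycle genes were lower in KO at both temperatures, in 20 of 24 at RT (median −0.78) and 24 of 24 in COLD (median −0.81). The RT values rest on 1 cluster led by cDC1 markers, with 87 cells in WT and 58 in KO, and not on the same clusters as in COLD. These 58 cells held 519418 UMIs, so the lowest levels in KO RT are a few counts each. Top2a was 28.0 CPM in WT RT, 9.20 in KO RT, 136 in WT COLD and 57.5 in KO COLD, with a log2 difference of −1.31 (SE 0.25) and an adjusted p of 0.33. Pclaf, a factor bound to the replication clamp, was 29.1, 4.60, 287 and 120 CPM, with a log2 difference of −1.46 (SE 0.30) and an adjusted p of 0.41. Mis18a, needed to load histone onto centromeres, was 19.0, 10.7, 52.0 and 28.2 CPM. Inside single COLD clusters the differences were smaller: the summed level in KO was 0.932 of that in WT in the larger cDC1 cluster, 0.998 in the larger cDC2 cluster and 0.859 in the smaller one. The smaller cDC1 cluster, led by the cell cycle genes Pclaf and Ube2c, held 228 cells of WT COLD and 21 of KO COLD of the 1951 and 500 dendritic cells, too few in KO to compare within it. Without this cluster 19 of 24 members were lower in KO and the ratio of KO to WT for the sum was 0.852, against 0.568 with it. In the whole fraction the ratio was 0.842 without it and 0.612 with it, and 21 of 22 were lower. The T cell median in COLD was −0.48 (22 of 24 lower), whereas in NK cells 15 of 18 were higher (median 0.84) with 231 cells in WT and 138 in KO. In the resident macrophage cluster the sum was 5006 CPM in WT and 2288 in KO, a ratio of 0.457.

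Genes of lipid-associated macrophages were lower in KO COLD. The list holds 18 genes for lipid uptake, storage and lysosomal handling, 17 of which were lower in KO COLD and 1, Apoe, higher. The median was −0.56 in COLD and 0.07 at RT, where 10 were higher and 8 lower. Fabp5, a fatty acid carrier, was 70.3 CPM in WT RT, 43.3 in KO RT, 1522 in WT COLD and 695 in KO COLD, with 1834 and 1686 in C57 COLD. Gpnmb, a lysosomal glycoprotein gene, was 1.08, 1.49, 275 and 148 CPM, with 776 and 800 in C57 COLD. KO COLD was below the 3 other COLD libraries for both genes. The members with the most counts were Lgals3, a galectin gene, at 418, 332, 5639 and 3760 CPM, and Apoe, a lipoprotein component, at 1275, 2078, 1935 and 2609.

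The summed level of the 18 genes was 20773 CPM in WT COLD and 15108 in KO COLD, a ratio of 0.727. It was 35357 and 29396 in C57 COLD but 33123 and 17980 in the 2 C57 CL libraries. In monocytes and macrophages taken alone, 17 of 18 were lower in KO COLD, with a median of −0.55. The MAC1 cluster was 40.5% of the WT COLD cells and 16.6% of the KO COLD cells of this class. Inside the MAC1 cluster itself the sum was 55143 CPM in WT and 51797 in KO, a ratio of 0.939. Across the 17 COLD clusters the sum was lower in KO in 12, with a median ratio of 0.886 and the lowest, 0.617, in the larger cDC2 cluster. The 12 MAC1 markers were lower in KO COLD in 12 of 12, against 5 higher and 7 lower at RT. These markers named the MAC1 cluster, and Gpnmb and Fabp5 are in both lists. The lower levels of both lists in COLD are thus not a separate result from the lower share of that cluster. No member of either list passed the test.

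**Figure D5:**
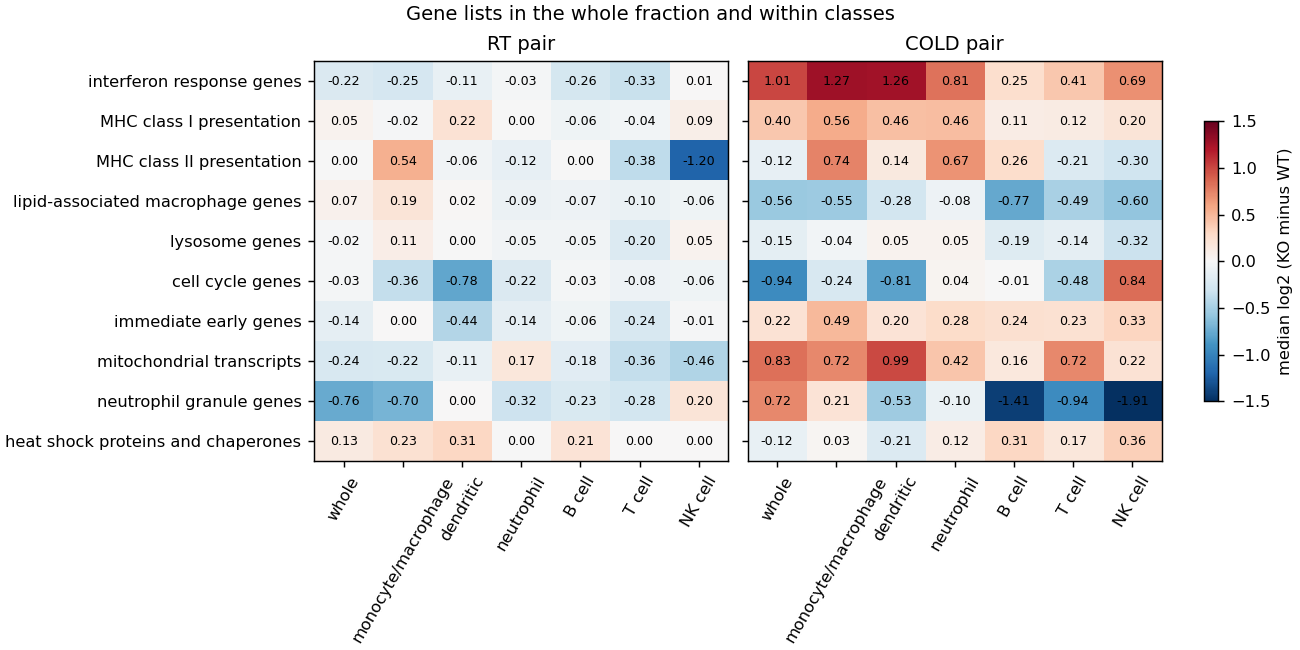
Median log2 difference KO minus WT of the members of gene lists (rows) in the whole fraction and in 6 classes (columns), RT pair on the left and COLD pair on the right, with the value in each field and no test. In the whole fraction in COLD, interferon response genes stand at 1.01 and cell cycle genes at −0.94.

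Genes of the resident macrophages were higher in KO at RT. Of 15 measured, 14 were higher at RT, with a median of 0.43, and 6 were higher and 9 lower in COLD, with a median of −0.03. The macrophage clusters at RT had different shares: the cluster led by Ccl12 and C1qb held 3.76% of WT RT and 7.25% of KO RT cells, the cluster with Folr2 and Lyve1 1.33% and 2.14%, the cluster led by Lyz1 and Retnla, named resident macrophage here but largely cDC2 with resolution 2, 6.29% and 4.28%, and the monocyte clusters 10.6% and 7.77%. Selenop, a selenium carrier, was 441 CPM in WT RT, 589 in KO RT, 255 in WT COLD and 352 in KO COLD, whereas the chemokine gene Pf4 was 198, 266, 535 and 376. The complement genes C1qa and C1qb, made by resident macrophages, were 313 and 307 CPM in WT RT, 561 and 531 in KO RT, 354 and 599 in WT COLD and 501 and 609 in KO COLD. Within monocytes and macrophages, Cd163, the scavenger receptor for haemoglobin, was 116, 184, 20.4 and 37.9 CPM, with a log2 difference of 0.78 (SE 0.18) and an adjusted p of 1.0. Beside it, the transcription factor gene Creb5 (25.3, 51.8, 18.4 and 29.7 CPM) and the cyclin gene Ccnd1 (55.3, 77.8, 39.4 and 62.2) had the smallest p-values among genes higher in KO in both pairs. Among those lower in both, Cd24a (50.9, 28.9, 79.4 and 55.9 CPM), the serine transporter gene Sfxn1 (24.0, 13.8, 37.3 and 24.99) and Tmem251 (24.0, 18.1, 120 and 80.4) led.

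Antigen presentation genes were counted by class of molecule, and the difference between the classes of molecule was not tested. MHC class I genes, which display peptides to CD8 T cells, were higher in KO COLD in 13 of 16 in the whole fraction (median 0.40), in 16 of 16 in monocytes and macrophages (0.56), dendritic cells (0.46) and neutrophils (0.46). At RT the whole-fraction median was 0.05. The ratio of KO to WT for the summed level in COLD was 1.19. With erythroid cells kept and no TMM factors it was 0.942. Keeping them raised the UMI total from 3.42e+07 to 4.13e+07 in WT COLD and from 1.52e+07 to 2.35e+07 in KO COLD. That lowers the ratio for any genes to which erythroid cells add little, so the turn is not particular to this list. B2m was 1112 CPM in WT RT, 1060 in KO RT, 5121 in WT COLD and 5551 in KO COLD, and H2-D1 was 1462, 1349, 2420 and 3313. MHC class II genes, which display peptides to CD4 T cells, had medians of 0.00 at RT and −0.12 in COLD in the whole fraction, with Cd74 at 4740, 5425, 12556 and 12367 CPM and H2-Ab1 at 1803, 2106, 5676 and 4875. In monocytes and macrophages they were higher in KO at both temperatures, in 7 of 9 at RT (median 0.54) and 8 of 9 in COLD (0.74). There H2-Ab1 was 2960, 4294, 641 and 1661 CPM. The C57 libraries of that class ranged from 1683 to 11818 CPM for the same gene. The class had a different make-up in the 2 genotypes, with the MAC1 cluster at 40.5% of its WT COLD and 16.6% of its KO COLD cells. At RT it held the cluster of 302 cells of which 228 were named cDC2 with resolution 2. The part of this make-up in the class II levels was not tested. Reads of MHC genes can be shared among near-identical copies, so single genes are uncertain.

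Lymphocyte and neutrophil genes in the whole fraction leaned the same way as the cell shares. B cell genes were higher in KO COLD in 15 of 16 (median 1.02) and lower at RT in 13 of 16 (−0.20), with Ighm at 1007 CPM in WT RT, 662 in KO RT, 245 in WT COLD and 379 in KO COLD, and the receptor component gene Cd79a at 349, 302, 121 and 276. Cytotoxic lymphocyte genes were higher in KO COLD in 11 of 11 (median 1.09), with the chemokine gene Ccl5 at 683, 659, 606 and 920 CPM and the granzyme gene Gzma at 306, 200, 112 and 227. T cell activation and regulatory genes had medians of 0.25 at RT and 0.48 in COLD, with Cd44 at 391, 337, 448 and 407 CPM and Ccr7 at 288, 298, 190 and 275. Neutrophil granule genes were lower in KO RT in 13 of 13 (−0.76) and higher in KO COLD in 13 of 13 (0.72). S100a9, a subunit of calprotectin, was 5303, 3130, 1695 and 2977 CPM, and S100a8 was 2705, 1671, 2125 and 3520.

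Chemokine ligand genes had medians of 0.03 at RT and −0.13 in COLD. Cxcl2, which draws neutrophils, was 796, 516, 2268 and 2044 CPM in the order WT RT, KO RT, WT COLD and KO COLD, and Ccl2, which draws monocytes, was 90.3, 57.3, 2126 and 1896. Both were lower in KO in both pairs, as was the receptor of Ccl2, Ccr2, at 328, 218, 442 and 364 CPM (log2 difference −0.43, SE 0.18, adjusted p of 1.0). Chemokine receptor genes had medians of −0.03 and 0.13, and Ccr7 is given above. Cytokine and cytokine receptor genes, chiefly TNF, IL-1, IL-6 and IL-10 with others such as Tgfb1, were lower in KO RT in 12 of 15 (−0.26) and higher in KO COLD in 12 of 15 (0.31). Il1b, an inflammatory cytokine of macrophages and neutrophils, was 1378, 892, 710 and 917 CPM, and Tgfb1 was 184, 186, 194 and 242. Immediate early genes, induced within minutes of a stimulus or of tissue handling, were lower in KO RT in 19 of 21 (−0.14) and higher in KO COLD in 20 of 21 (0.22), with Junb at 2261, 2063, 1442 and 2259 CPM and Fos at 1265, 1205, 1578 and 1800.

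Genes of adrenergic signalling had medians close to 0. Of 13 β-adrenergic and cAMP response genes, 5 were higher in KO RT and 8 in KO COLD, with medians of −0.09 and 0.05. Dusp1, a phosphatase induced by cAMP and by handling, was 674, 641, 811 and 839 CPM, and the orphan receptor gene Nr4a1 was 397, 259, 320 and 381. Maoa, which degrades catecholamines, was 3.56 CPM in WT RT, 4.90 in KO RT, 3.19 in WT COLD and 3.04 in KO COLD. Growth factors and ligands to stromal cells had medians of 0.06 and 0.10, with Spp1, a secreted matricellular protein, at 5.11, 4.32, 1421 and 969 CPM.

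The lists of lysosome, sterol, cholesterol efflux, stress, clock, type 2 immunity and complement genes had medians between −0.30 and 0.18 at both temperatures. Lysosome genes were lower in KO COLD in 23 of 29 (−0.15), with Psap at 1247, 999, 4372 and 3291 CPM and Ctsb at 430, 481, 2947 and 2188. Sterol synthesis and uptake genes were lower in KO in 13 of 16 at RT (−0.07) and 13 of 16 in COLD (−0.09). Srebf2, a regulator of these genes, was 64.7, 62.8, 68.4 and 66.6 CPM. Cholesterol efflux and LXR target genes had medians of 0.02 and −0.24, heat shock genes 0.13 and −0.12, glucocorticoid targets and metallothioneins 0.06 and −0.18, clock genes 0.08 and 0.18, type 2 immunity genes −0.30 and −0.13, and complement genes 0.03 and −0.11. Chil3 and Retnla, markers of alternatively activated macrophages, were 113 and 2044 CPM in WT RT, 74.9 and 1009 in KO RT, 1491 and 206 in WT COLD and 2226 and 178 in KO COLD. The chaperone genes Hspa8 and Hsp90ab1, the inhibitor gene Nfkbia, the clock genes Bhlhe40 and Per1 and the receptor degradation gene Mylip each differed by at most 0.30 on the log2 scale at both temperatures.

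Over the whole fraction, the genes with the smallest p-values among those higher in KO in both pairs were Igtp, Slco2b1 and Cox18. Igtp, an interferon-induced GTPase gene, was 27.6 CPM in WT RT, 40.2 in KO RT, 31.1 in WT COLD and 67.9 in KO COLD. Slco2b1, an organic anion transporter, was 17.3, 31.1, 3.60 and 9.61. Cox18, for assembly of cytochrome oxidase, was 8.13, 11.7, 15.2 and 27.6. The lowest p among those lower in both belonged to Sept3 (9.81, 5.15, 43.4 and 16.8 CPM), Olfm1 (60.9, 38.6, 99.6 and 70.3) and Naaa, a lysosomal hydrolase and cDC1 marker (105, 75.7, 457 and 260). Each of the 6 had an adjusted p of 1.0.

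In neutrophils the 3 leading genes higher in KO were interferon response genes. In COLD the sum of that list was higher in KO in the smaller neutrophil cluster and not in the larger, as given above. Cxcl10 was 6.81 CPM in WT RT, 15.2 in KO RT, 115 in WT COLD and 561 in KO COLD, Ifi47 was 15.9, 20.9, 43.3 and 151, and Oasl1 was 65.8, 166, 69.8 and 109. Those lower in KO were Bambi, a decoy receptor for TGF-β (22.7, 1.90, 40.7 and 16.0 CPM), the chemokine gene Cxcl3 (13.6, 3.81, 44.2 and 9.44) and the haem synthesis gene Alas2 (2.27, 0, 53.0 and 9.44). Each of these had an adjusted p of 1.0. The neutrophil values of KO RT rest on 219 cells with 497498 UMIs, so the lowest are a few counts each. Alas2 was also one of the markers used to name erythroid cells. In NK cells the leading genes higher in KO were Tnfrsf9, a costimulatory receptor (55.9, 140, 105 and 232 CPM), Sec22b (16.3, 55.3, 54.5 and 111) and Xcl1, a chemokine that draws cDC1 (133, 421, 1187 and 1740). The NK values of KO RT, here and below, rest on 65 cells, so the lowest are a few counts each.

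The remaining leading genes of lymphocytes were few in number or belonged to other cells. In B cells Ighg2b (0, 20.2, 11.5 and 25.1 CPM), Tmem126a (17.1, 24.9, 26.6 and 52.9) and Il9r (13.5, 21.5, 6.20 and 26.0) were higher in KO, and Retnlg (9.87, 2.69, 353 and 127), Ap3s1 (9.35, 4.04, 53.2 and 21.4) and G0s2 (1.56, 0.673, 105 and 43.7) were lower. Retnlg and G0s2 are neutrophil markers. In T cells AC149090.1, Rnf34 and Nav2 led among the higher and Cd63, Abcg1 and Grsf1 among the lower genes, with log2 differences from 0.63 to 0.96 and from −1.27 to −0.59. In NK cells S100a8 (4.66, 0, 966 and 264 CPM), Rsu1 (55.9, 25.5, 109 and 42.9) and Alox5ap (6.99, 0, 171 and 53.6) were lower. With the replicate block, Retnlg in B cells passed as lower in KO (adjusted p of 0.044), as did S100a8, S100a9 and Lyz2 in NK cells, while Klra9 passed as higher in T cells. Klra9 belongs to a family of similar receptor genes, so reads may be split among them. The 4 other genes called in T cells were globin genes, of which the filter on cells used Hba-a1 and Hbb-bs, so these calls are not read.

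Other readouts moved with the COLD pair. Neutrophil granule genes, which lymphocytes do not make, had a median log2 difference of −1.41 in B cells, −0.94 in T cells and −1.91 in NK cells in COLD, so less neutrophil RNA was counted in KO lymphocytes although the neutrophil share was higher in KO. Cells had been left out by their Hba-a1 and Hbb-bs counts and by their share of mitochondrial counts, so the levels of these genes among members are set in part by the filter and are given as a description. Erythroid genes had medians of −0.10 at RT and −1.20 in COLD, with Hbb-bs at 261, 295, 1232 and 536 CPM and Hba-a1 at 83.3, 76.1, 435 and 183. Mitochondrial transcripts summed to 22000 CPM in WT RT, 17517 in KO RT, 9926 in WT COLD and 19103 in KO COLD, and they were higher in KO in 17 of 17 COLD clusters, by 1.07-fold to 2.50-fold. In KO COLD mt-Atp6 was 4681 CPM and mt-Co1 3652, against 2401 and 1949 in WT COLD. Stromal genes were higher in KO COLD in 9 of 9 (0.40), with Gsn at 144, 252, 287 and 508 CPM and Sparc at 55.7, 69.5, 156 and 186. Endothelial genes had medians of −1.17 at RT, where the share of the cluster named endothelial was higher in KO, and 0.72 in COLD and adipocyte genes of −0.17 and −0.03, with Cd36 at 128, 138, 268 and 158 CPM, Pecam1 at 83.1, 72.8, 39.3 and 59.2, Fabp4 at 284, 110, 603 and 471, and Lpl at 164, 148, 386 and 298. The part of these readouts in the differences between KO and WT was not tested.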

How the data were processed

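The authors mapped reads with Cell Ranger 3.0.1 to mm10 and removed an estimate of free RNA with SoupX, with Fabp4 and Car3 taken as not expressed. The authors deposited the resulting estimated counts per cell, mostly not whole and not scaled to depth. SoupX lowers counts of abundant genes in cells that do not make them. Here counts were summed per library, overall and per class, and rounded.

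Each pair was clustered with scanpy 1.11.5 (Leiden, resolution 1, or 2 as an alternative) without the genes used for naming, and a cluster was named only with 3 or more markers raised. Unnamed clusters stayed in the whole fraction. Doublets were left in, except in an alternative without the top 6% of Scrublet scores.

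KO was tested against WT with edgeR 4.0.16 (quasi-likelihood, TMM, filterByExpr, Benjamini-Hochberg, threshold 0.05) over all 10 Lin+ libraries, with a mean for each C57 group and each temperature of the Adrb1 line and 1 KO term. The spread came from the C57 replicates and from how the 2 pairs of the Adrb1 line differ. Each group of that line was 1 library, so p-values do not measure the spread between pools of the groups compared. Where the 2 pairs went opposite ways, their difference counted as spread. The authors merged C57 libraries of the same replicate experiment, and deviations of number 2 from number 1 correlated at 0.30, 0.19 and 0.36 between groups. With 2 libraries per group these correlations alone cannot establish a pairing. The main fit did not use the replicate number, so any difference between replicate experiments is part of its spread. The fit with the replicate block takes it out. The script was tested on simulated data. Intervals on shares and levels cover counting error only, and those on log2 differences the spread between libraries.

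Members and gene lists (32 function lists and 3 macrophage lists) were chosen with earlier results of these data known. Genes named were those called, otherwise the 3 of smallest p per direction with the same direction in both pairs and at least 10 CPM, plus the 2 members of each list with the highest mean, some of which are not reported here. Alternatives were DESeq2 1.42.0, RLE scaling, no filter on low counts, the 4 libraries alone, the replicate block and each library left out. Those on list sums, marker-led groups, unnamed clusters and clusters left out were added after seeing the data.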

Additional observations from a re-analysis of the deposited data

Results flagged for a closer look

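The difference between KO and WT had opposite directions at the 2 temperatures in several results, each with 1 library per genotype and temperature. The neutrophil share in KO was 0.734 of that in WT at RT and 1.60 of it in COLD. The NK cell share was 0.639 of WT at RT and 1.39 in COLD. The B cell share was also lower at RT and higher in COLD (0.952 and 1.65), with counting intervals that overlapped at RT, where a cluster with B cell markers was left unnamed. Over all 7940 genes of at least 10 CPM in the whole fraction, only 51.5% had the same direction in both pairs. Opposite directions are thus not particular to the lists. Of 29 function lists with at least 5 measured members, the summed level in the whole fraction went opposite ways in 17, and by at least 1.1-fold at both temperatures in 9, a threshold chosen after seeing the data. In 8 of the 9 it was lower in KO at RT and higher in COLD. The ratios of KO to WT at RT and in COLD were 0.857 and 1.82 for interferon response genes, 0.796 and 1.92 for mitochondrial transcripts (whose share also decided which cells were kept), 0.606 and 1.60 for neutrophil granule genes, and 0.817 and 1.64 for B cell genes. They were 0.907 and 1.60 for cytotoxic lymphocyte genes, 0.751 and 1.21 for cytokines and their receptors, 0.903 and 1.24 for immediate early genes, and 0.660 and 1.27 for type 2 immunity genes, of which 4 members were higher and 8 lower in COLD. Without TMM factors the COLD ratio was 1.23 for cytokines, 1.26 for immediate early genes and 1.29 for type 2 immunity genes. With erythroid cells kept, also without TMM, it was 0.959, 0.982 and 1.01, and 1.26 to 1.53 in the other 5. Counts of erythroid cells then enter the library totals, and the COLD ratio of all 9 lists was lower. The 3 lists no longer went opposite ways by that fold, but the shift was not particular to them. Lipid-associated macrophage genes went the other way, at 1.22 and 0.727. The difference between temperatures was not tested in any of these, and temperature, kit version and collection day cannot be told apart.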

How the results depend on the processing

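The number of genes called differed between the fits, which did not all test the same genes. With the 4 Adrb1-line libraries alone, edgeR called 1 gene in the whole fraction, 5 in monocytes and macrophages, 138 in dendritic cells, 8 in neutrophils, 30 in B cells, 58 in T cells and 14 in NK cells, against 0 in each with all 10. Without a filter on low counts the numbers were 2, 65, 136, 9, 6, 23 and 8 in the same order. DESeq2 called 2 in monocytes and macrophages and 12 in dendritic cells. The replicate block gave 9 in dendritic cells, 1 in B cells, 5 in T cells and 3 in NK cells, and it changed no other call. RLE scaling and doublet removal gave 0, as did other erythroid filters in the whole fraction, where alone they were run. With 1 library left out in turn the count stayed at 0 except in neutrophils, where it was 0 to 1 (1 without WT RT or without KO RT). The cause of these differences was not tested. In a fit without a library its partner no longer informs the KO term, so the log2 difference in shares then describes the other pair alone: it ranged from −0.45 to 0.68 for neutrophils and from −0.070 to 0.73 for B cells, negative without either COLD library, and from −0.65 to 0.48 for NK cells, positive without either RT library. Of 431 comparisons of named genes across fits, 394 kept their direction and side of the threshold, 37 passed it and 0 reversed. These genes had been chosen for the same direction in both pairs, and none was called in the main fit. A reversal with a library left out and the loss of a call were thus excluded by the choice. These counts do not measure how stable the genes are. In COLD the ratio of KO to WT was 0.409 for the MAC1 share of monocytes and macrophages, against 0.317 of all members. With erythroid cells kept and no TMM factors, the interferon ratio in COLD was 1.44, against 1.84 with them left out, also without TMM. The MHC class I ratio was 0.942, against 1.19 with TMM and erythroid cells left out. Counts of erythroid cells then enter the library totals, so these shifts are not particular to the 2 lists. Leaving out 1 COLD cluster turned the interferon ratio of neutrophils from 1.52 to 0.860 and moved that of monocytes and macrophages from 1.93 to 1.23. Dendritic cells at RT were 87 and 58 cells, which limits their values.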
